A study of Mus musculus with 48 samples.

Results

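Alveolar macrophages live on the air side of the lung, where they clear surfactant, inhaled particles and dying cells. They settle the lung around birth, depend on GM-CSF and on the lipid sensor PPARγ, and keep a programme of lipid-handling and secreted proteins that macrophages of other tissues lack. When monocytes enter an inflamed lung they can become macrophages as well, and early in that process they carry little of this programme.

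The genes described here are 9 that are widely used to recognise alveolar macrophages in the mouse: Chil3, Ear1, Ear2, Marco, Plet1, Car4, Fabp1, Atp6v0d2 and Siglecf. They were taken by name, and all 9 are rows of the 34586 genes in the matrix of unique molecular identifiers (UMIs, one for each captured RNA molecule). The study applied Seq-Well, a nanowell method that counts the 3′ ends of RNAs in single cells, to male DBA1/J mice of 8 to 12 weeks with collagen-induced arthritis (CIA) and to healthy mice. CIA was induced in 6 mice by intradermal injection of 100 µg of bovine collagen II in complete Freund's adjuvant, with a booster on day 20, and the 4 healthy mice received PBS. The healthy mice are H3, H4, H6 and H7, and the CIA mice are S1, S2 and S3, with severe arthritis, and S5, S6 and S8, with mild arthritis. The titles put H3, S1, S2 and S3 in an experiment named 2CIA and the other mice in one named CIA, and a difference between severe and mild arthritis cannot be told apart from one between the experiments.

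The 48 libraries came from joint, lung, muscle, skin and spleen and held between 20347 and 1708093 UMIs each. They were made from cryopreserved tissue, digested with enzymes in all of these organs but spleen, which was passed through a strainer. Of 13240 cells, 12096 carried one of the authors' cell type labels. The label macrophages covered 677 cells in lung, 304 in joint and 274 in muscle. UMIs were summed over these cells for each mouse and organ, and sums of at least 10 cells entered the tests: lung of 4 healthy and 6 CIA mice, joint of 3 and 4, and muscle of 3 and 4. These sums held 17240 to 103883 UMIs in lung, 11900 to 131720 in joint and 12559 to 110996 in muscle. A level is given as UMIs of a gene per 1000000 UMIs of the summed cells (CPM), and compares a gene between samples, since 3′ counting is not scaled by gene length. A lower level in a sum can stand for fewer cells with the gene or for less RNA per cell, and the share of cells with a UMI is therefore given beside it.

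The macrophage label was checked against its markers. The 10 macrophage markers (among them Lyz2, Ctss, Cd68 and C1qb) took 2.65% to 3.12% of the UMIs in lung macrophages of healthy mice and 2.12% to 2.73% in those of CIA mice. The lung cells with this label were mixed, however. Of the 677 cells, 52 had at least 10% of their UMIs on 8 markers of alveolar and airway epithelium, such as Sftpc, a surfactant protein, and Scgb1a1, the club cell secretory protein, and these markers held 34.6% of the UMIs of the 52 cells. The macrophage markers took 2.16% of UMIs in those cells and 2.70% in the other 625, so this check did not separate them. Within the list Lyz2 stood at 17345 CPM in lung macrophages pooled over mice, against 238 CPM for Cd68 and 102 CPM for C1qb. The members were scarce in the 52 cells, at 227 CPM summed over the 9 genes (11 UMIs), against 2497 CPM in the other 625 cells. The epithelial markers took 2.54% to 12.5% of lung macrophage UMIs in healthy mice and 0.231% to 6.19% in CIA mice, and each comparison between groups is therefore also given without the 52 cells, an alternative added after seeing the data.

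The 9 genes hold different roles. Marco, a scavenger receptor, and Siglecf, a sialic acid-binding receptor, stand on the cell surface. Chil3 (also called Ym1) is a secreted chitinase-like protein, and Ear1 and Ear2 are secreted ribonucleases. Car4 is a membrane-bound carbonic anhydrase, Fabp1 a fatty acid-binding protein best known from liver, Atp6v0d2 a subunit of the proton pump of lysosomes, and Plet1 a surface protein known from placenta, skin and other epithelia. In the GENCODE vM21 annotation of GRCm38, Chil3 lies at chr3:106147554-106167564 on the minus strand, Marco at chr1:120474538-120505024 (minus), Plet1 at chr9:50494525-50505482 (plus), Car4 at chr11:84957786-84966044 (plus), Fabp1 at chr6:71199827-71205023 (plus), Atp6v0d2 at chr4:19876841-19922605 (minus) and Siglecf at chr7:43351341-43359531 (plus). Ear1, at chr14:43818765-43875517 (minus), and Ear2, at chr14:44102654-44103534 (plus), are neighbours in one cluster of related genes.

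RefSeq gives the sequence before the start of 8 of the 9 genes (GRCm38.p6), and Atp6v0d2 was not matched. Ear1 and Ear2 are shown first because they are a nearly identical pair. Windows before the start are not what 3′ reads cover, so they do not bear on how UMIs are split. The Ear1 window lies before the RefSeq start but inside the longer GENCODE span of Ear1 given above. The windows of 250 bases before the 2 starts, at chr14:43819640-43819889 on the minus strand and chr14:44102404-44102653 on the plus strand, were aligned over 248 bases and matched at 246 of them (99.2%), with 2 mismatches and 0 gaps. Capitals mark the bases that differ.
Ear1: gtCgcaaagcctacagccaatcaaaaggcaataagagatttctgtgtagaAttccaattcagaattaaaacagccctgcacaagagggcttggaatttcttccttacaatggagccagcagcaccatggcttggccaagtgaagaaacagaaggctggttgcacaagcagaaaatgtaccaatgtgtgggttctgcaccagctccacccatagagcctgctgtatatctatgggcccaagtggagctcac
Ear2: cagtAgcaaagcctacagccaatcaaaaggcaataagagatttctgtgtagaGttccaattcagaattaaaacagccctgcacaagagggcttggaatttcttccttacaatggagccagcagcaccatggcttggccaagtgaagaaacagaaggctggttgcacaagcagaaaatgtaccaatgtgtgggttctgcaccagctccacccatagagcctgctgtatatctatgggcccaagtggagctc
The transcripts resembled each other as well. Of the 50-base stretches in the last 300 bases of Ear1 transcripts, where 3′ reads fall, 29.1% also occurred in an Ear2 transcript, and of those of Ear2, 38.2% occurred in Ear1. For Chil3, 17.1% occurred in Chil4. The split of UMIs between Ear1 and Ear2, and in part between Chil3 and Chil4, is therefore uncertain.

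Fabp1 and Plet1 are shown because they were the 2 members with AGGTCA, the half-site that nuclear receptors such as PPARγ recognise, in the 250 bases before the start. The windows were searched on both strands for AGGTCA, for GAGGAA, the core that the myeloid factor PU.1 binds, and for TATAAA, and the 3 motifs do not overlap one another in these windows. Capitals mark AGGTCA on the reverse strand, which reads TGACCT here. The Fabp1 sequence covers chr6:71199629-71199826 on the plus strand, and the 52 bases nearest to the RefSeq start were left out because the GENCODE model already counts them as exon. The Plet1 sequence covers chr9:50494275-50494524 on the plus strand.
Fabp1: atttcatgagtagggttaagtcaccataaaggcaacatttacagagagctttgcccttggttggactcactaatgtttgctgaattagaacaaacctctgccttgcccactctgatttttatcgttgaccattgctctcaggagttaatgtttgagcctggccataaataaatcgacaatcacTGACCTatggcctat
Plet1: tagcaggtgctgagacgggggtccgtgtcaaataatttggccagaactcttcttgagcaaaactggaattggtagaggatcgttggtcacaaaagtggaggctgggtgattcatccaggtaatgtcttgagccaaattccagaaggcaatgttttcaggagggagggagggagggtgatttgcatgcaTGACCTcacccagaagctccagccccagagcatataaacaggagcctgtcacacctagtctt
Over 32851 windows of the same length, 14.0% held AGGTCA, 23.3% GAGGAA and 12.4% TATAAA. In the whole Fabp1 window AGGTCA began 67 and 9 bases before the RefSeq start and GAGGAA 45 bases before it, and in Plet1 AGGTCA began 62 bases before it. TATAAA stood 30 bases before the start of both genes. GAGGAA was also found in Marco and Siglecf, so that it occurred in 3 of the 8 windows. These are matches of letters, not sites shown to be bound.

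Among all cells the 9 genes gave 3918 UMIs, of which 1021 (26.1%) were in lung macrophages. The level summed over the 9 genes was highest there, at 2253 CPM (95% Poisson interval 2117 to 2396, pooled over 10 mice), and reached nearly the same value, 2168 CPM, in the 108 lung cells that carried no label. The pooled value mixes 3360 CPM in healthy mice (3112 to 3622) with 1355 CPM in CIA mice (1215 to 1508). Joint granulocytes came next at 1403 CPM (1320 to 1489), an amount that Chil3 supplied almost alone and that lay within the interval of lung macrophages of CIA mice. In CIA mice alone joint granulocytes stood at 1412 CPM (1327 to 1500). These intervals cover counting error only, not the spread between mice, and levels are compared among groups of organ and label with at least 50 cells.

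Fabp1 was the member that kept most closely to the lung. It gave 295 UMIs in the whole series, all of them in lung libraries, with 264 (89.5%) in lung macrophages at 583 CPM and 27 in unlabelled lung cells at 505 CPM. Lung T cells held 4 UMIs (86.2 CPM). Ear1 and Ear2 were nearly as restricted. Ear1 had 125 of 146 UMIs (85.6%) in lung macrophages at 276 CPM, and no other labelled group exceeded 27.5 CPM, a level that rested on 1 UMI in skin macrophages. Ear2 had 174 of 243 UMIs (71.6%) there at 384 CPM, and reached 34.3 CPM in muscle macrophages and 21.1 CPM in spleen monocytes. Atp6v0d2, whose pump subunit is also known from osteoclasts, had 88 of 121 UMIs (72.7%) in lung macrophages at 194 CPM, and 15.0 CPM in joint macrophages.

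Chil3 and Plet1 were abundant outside the lung. Chil3 was higher in granulocytes than in lung macrophages: 1399 CPM in joint granulocytes (1072 UMIs), 1220 CPM in muscle granulocytes and 745 CPM in spleen granulocytes, against 578 CPM (262 UMIs) in lung macrophages. A UMI of Chil3 was found in 50.6% of 759 joint granulocytes (median 830 UMIs per cell) and in 22.5% of the lung macrophages (median 583). Only 11.4% of all Chil3 UMIs were in lung macrophages. Plet1 was highest in the cells labelled basal III of skin, which are keratinocytes, at 697 CPM (524 UMIs), followed among labelled groups by basal III cells of joint at 202 CPM, skin macrophages at 165 CPM (6 UMIs) and lung macrophages at 163 CPM (74 UMIs). The intervals of the last 3 overlapped.

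The remaining members were rare. Car4 had 32 of 56 UMIs (57.1%) in lung macrophages at 70.6 CPM, and in no other labelled group exceeded the 16.6 CPM of skin fibroblasts, where 1 cell held all UMIs. Siglecf, a receptor often used to sort alveolar macrophages, gave 15 UMIs in the series and 2 in lung macrophages. Marco gave 1 UMI in the series, in a muscle cell labelled as myocyte, and 0 in the 677 lung macrophages, which allows a level of up to 6.62 CPM and a share of cells with a UMI of up to 0.443%. Neither gene can be compared between groups at this depth. Siglecf and the Ear genes are also known from eosinophils. Of 5 eosinophil markers 4 (Epx, Prg2, Prg3 and Il5ra) were at 0 in lung macrophages of both groups. The other one, Ccr3, gave 2 UMIs in healthy mice, both in H4, and 4 in CIA mice, in S1, S2 and S3, so that the list took at most 0.00193% of UMIs in healthy and 0.00526% in CIA mice.

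**Figure D1:**
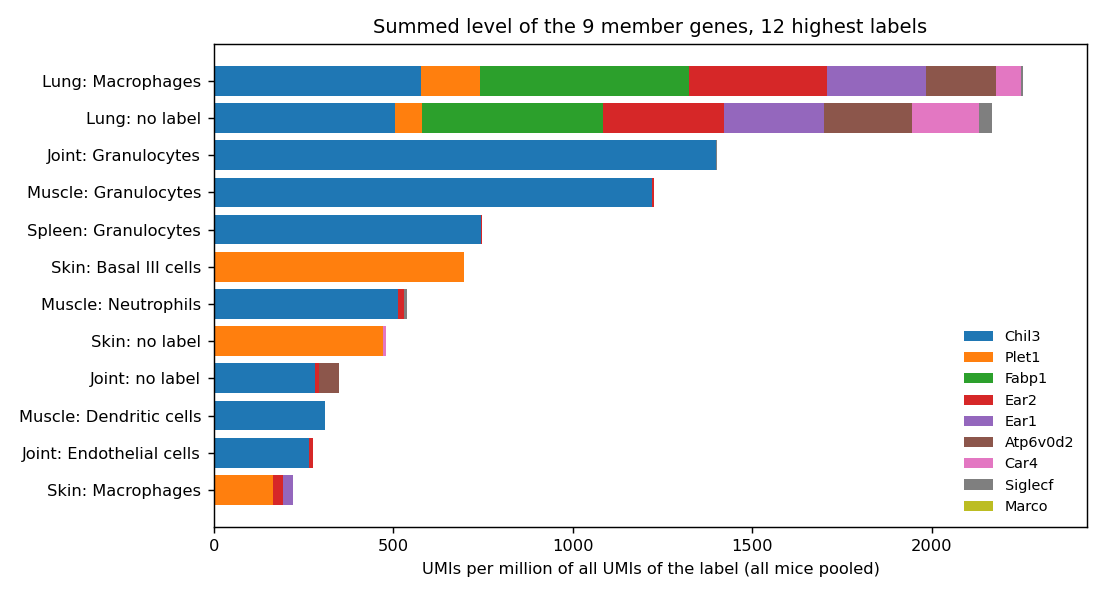
Level of the members in the groups of organ and label of at least 50 cells with the highest sums, cells without a label included, in UMIs per 1000000 UMIs (CPM) of the cells pooled over mice, with the genes stacked in separate colours. Lung macrophages reached 2253 CPM with several members contributing, and joint granulocytes 1403 CPM from Chil3.

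In lung macrophages the members occurred together in the same cells. Of the 677 cells, 438 (64.7%) had no UMI of any member, 72 had UMIs of 1 member and 167 (24.7%) of at least 2, and 5 cells had UMIs of 6 members. After each cell was thinned to 400 UMIs, 30.9% had at least 1 member and 18.0% at least 2. In lung T cells, which should lack these genes, 6 of 78 cells (7.69%) had 1 member and 0 had 2, which allows a share of up to 3.85% (median 526.5 UMIs per cell). In joint macrophages 41 of 304 cells (13.5%, 3.62% after thinning) had at least 1 member and 0 had 2, which allows up to 0.987%. In muscle macrophages it was 29 of 274 cells (10.6%, 3.65% after thinning) with at least 1 and 2 with 2. The thinned shares with at least 1 member in joint and muscle lay below the share in lung T cells and are not read as expression. Because these T cells come from lung libraries, the comparison cannot decide whether joint or muscle macrophages express members.

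Ear1 illustrates the joint detection. Of the 76 lung macrophages with an Ear1 UMI, 65.8% also had Chil3, against 17.0% of those without, 65.8% had Fabp1 against 10.5%, and 63.2% had Ear2 against 8.82%. Cells with Ear1 were also deeper, at a median of 789 UMIs against 571, and Ear1 and Ear2 share sequence. Fabp1 and Atp6v0d2, which belong to unrelated families, were found together in 29.2% of cells with Fabp1 and 5.67% of the cells without.

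Genes outside the members followed the same cells. A list of 26 other genes known in alveolar macrophages (such as Pparg, Lpl, Abcg1, Cd36 and Ear10) took 1.95% of the UMIs of the 166 cells with 2 or more members, once the cells rich in epithelial markers were set aside, and 0.584% of the UMIs of the 394 cells with none. The macrophage markers took 3.97% and 2.00% of UMIs in these cells. A list of 8 monocyte genes (such as Ly6c2, Plac8 and Ifitm6) went the other way, at 0.0269% and 0.305%, and 7 granulocyte markers stood at 0.146% and 0.652%. These are pooled shares without a test. The median depth was 727 UMIs in cells with 2 or more members and 538 in cells with none.

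The first comparison set lung macrophages against those of joint and muscle, the other organs with macrophages in enough mice, to ask how far the 9 genes separate them. In the joint and muscle sums tested, only Chil3 exceeded 79.6 CPM in any mouse, and Fabp1, Car4, Siglecf and Marco were at 0. The muscle sum of S1, with 9 cells and 7282 UMIs, was too small to be tested and held 1 UMI each of Car4 and Atp6v0d2 (137 CPM each, where the floor of 3 counts was 412 CPM). Fabp1 ranged over the 10 lung mice from 52.6 CPM (S3) through a median of 509 to 1205 CPM (H7), and was 0 in all 7 joint and all 7 muscle sums tested. The groups did not overlap, and pooled over the mice tested the level was at least 64.2-fold higher in lung than in joint and at least 53.8-fold higher than in muscle, taking 3 counts as the floor for each group at 0. In the fit with edgeR's quasi-likelihood test over 913 genes Fabp1 passed, with a Benjamini-Hochberg adjusted p of 1.18e-05 against joint and 1.38e-05 against muscle.

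Ear2 ranged from 158 to 809 CPM in lung. In joint it was 0 except in S1 at 42.6 CPM (4 UMIs), and in muscle it was 39.4 CPM in S2, 79.6 in S3, 54.1 in S6 and 47.8 in H6 and 0 in S5, H4 and H7. Every lung mouse lay above every joint and muscle mouse. The log2 fold change was 4.34 ± 0.64 (SE, adjusted p = 1.5e-05, edgeR) against joint and 3.03 ± 0.55 (adjusted p = 0.000197) against muscle. With each mouse left out in turn it ranged from 3.92 to 6.67 against joint and from 2.66 to 3.72 against muscle. The highest value against joint was without S1 (adjusted p = 1.48e-05, edgeR). S1 held all Ear2 UMIs of the joint sums, so the size of that value depends on the prior count of the fit. In healthy mice alone Ear2 was 0 in joint and rested on 1 UMI in muscle (H6). The fitted values there, 7.38 against joint and 5.18 against muscle, are therefore not read as effect sizes.

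Chil3 overlapped between organs. It ranged from 174 to 943 CPM in lung. In joint it was 117 CPM in S1, 55.2 in S3, 213 in S5, 125 in S8, 48.4 in H3, 0 in H4 and 56.2 in H7. In muscle it was 39.4 CPM in S2, 0 in S3, 140 in S5, 63.1 in S6, 77.0 in H4, 0 in H6 and 332 in H7. The lowest lung mouse, S8, lay below S5 of joint, and S8 and S6 lay below H7 of muscle, and the other lung mice lay above all joint and muscle mice. The log2 fold change was 2.16 ± 0.42 (SE, adjusted p = 0.000644, edgeR) against joint and 2.45 ± 0.44 (adjusted p = 0.000178) against muscle.

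Granulocyte markers were higher in joint macrophages of CIA mice, and the mean of Chil3 was higher as well. The markers took 0.0924% to 0.83% of joint macrophage UMIs in healthy mice and 3.36% to 6.00% in CIA mice, while Chil3 had a mean of 34.9 CPM in healthy joints (n = 3) and 128 CPM in CIA joints (n = 4). The healthy joints held 2 Chil3 UMIs in H3, 1 in H7 and 0 in H4, all below the floor of 3 counts. The groups overlapped, with S3 (55.2 CPM) below H7 (56.2 CPM), and Chil3 was not tested between them. Among the CIA joints S8 and S3 had the most granulocyte markers, 6.00% and 5.83% of UMIs, and S1 and S5 had 3.37% and 3.36%. Chil3 rested on 28 UMIs in S5, 11 in S1, 2 in S8 and 1 in S3. S8 and S3 lay below the floor of 3 counts, so the order of the 4 Chil3 levels cannot be read. In the healthy mice alone the log2 fold change of Chil3 between lung and joint was 4.10 (adjusted p = 0.000657, edgeR). In the CIA mice alone it was 1.46 (adjusted p = 0.0689, edgeR). The value of 4.10 rests on the few Chil3 UMIs of the healthy joints and is not read as an effect size. Chil3 was also found in joint endothelial cells, which should lack it, at 265 CPM (15.1% of 258 cells, median 764.5 UMIs), against 135 CPM (11.5%, median 819) in joint macrophages, so its joint macrophage level is not read as expression. The part of granulocyte RNA in the joint level was not tested.

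These 3 genes were the only members to pass the filter on low counts, and 3 of 3 were called higher in lung in both contrasts. Of all genes tested, 6.46% were called higher in lung than in joint and 13.3% higher than in muscle. Members that entered only through a high level in lung had to differ, so the count is no support by itself. Without the lung cells rich in epithelial markers, 4 members passed the filter and were called in each contrast. This count has the same limit and is no support either.

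The other 6 members were read from a fit of every gene with at least 1 count, in which 0.398% of 20377 genes were called higher in lung than in joint and 0.859% higher than in muscle. The fitted fold changes of genes at 0 depend on the prior count, so pooled ratios are given in their place. Ear1 was 0 in all joint sums tested and 1 UMI in those of muscle (S2), and its level in lung was at least 30.4-fold that in joint (adjusted p = 2.9e-09, edgeR), with S3 the 1 lung mouse at 0. The pooled ratio of lung to muscle was 76.4 (95% counting interval 13.5 to 3043, adjusted p = 1.33e-07). Car4 was 0 in the joint and muscle sums tested and at least 7.78-fold and 6.52-fold higher in lung (adjusted p = 0.000426 and 0.00052). Car4 was above 0 in 10 of 10 lung mice, from 29.8 to 201 CPM.

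Plet1 was 7.59 CPM in S5 of joint (1 UMI), 19.7 in S2 and 18.0 in S6 of muscle and 0 in the other joint and muscle sums tested, against 64.5 to 348 CPM in lung without overlap. The pooled ratio of lung to muscle was 15.1 (95% counting interval 4.97 to 74.8, adjusted p = 5.89e-05, edgeR) and that of lung to joint 54.0 (9.40 to 2161, adjusted p = 1.84e-06). Atp6v0d2 in joint was found in S1 alone, at 53.3 CPM (5 UMIs), and among the muscle sums tested in H7 alone, at 30.2 CPM, while 9 of 10 lung mice had it at 34.7 to 388 CPM and S8 was at 0. Its pooled ratio of lung to joint was 12.8 (5.30 to 40.5, adjusted p = 0.000146, edgeR), and that of lung to muscle 53.8 (9.41 to 2150, adjusted p = 8.46e-07). Of 7 osteoclast markers, Ctsk (12 UMIs) and Acp5 (7 UMIs) lay above the floor of 3 counts in joint macrophages of CIA mice and Calcr, Dcstamp and Oscar were at 0. The list took 0.016% of UMIs in S1, the joint with Atp6v0d2, 0.00531% in S5 and 0 in S3 and S8, and 0.00562% to 0.0168% in healthy joints, where Atp6v0d2 was at 0. The part of osteoclast RNA in the Atp6v0d2 level of S1 was not tested. Siglecf did not pass (adjusted p = 0.614 and 0.563), and Marco, at 0 throughout, could not be fitted.

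**Figure D2:**
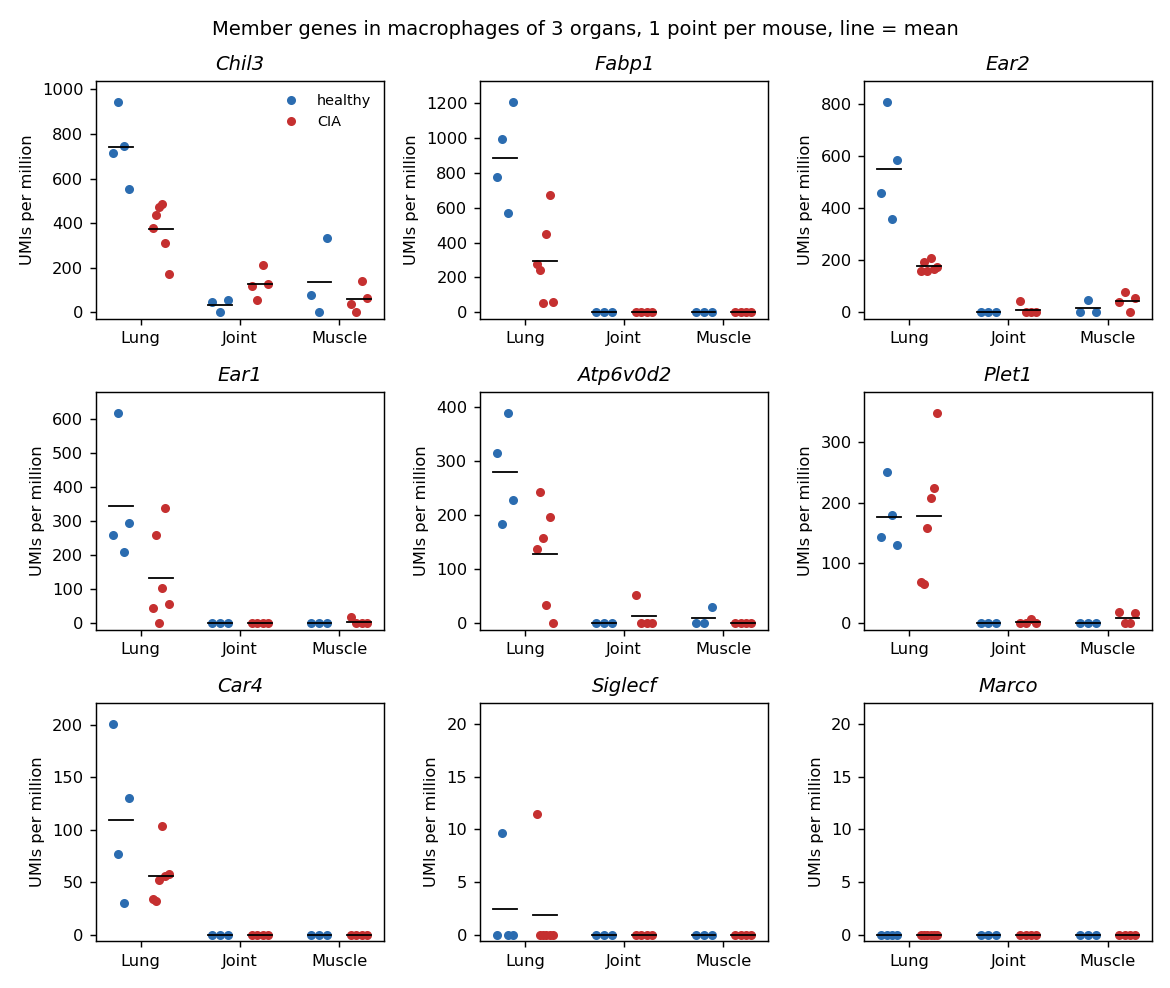
Level of each member in the summed macrophages of each mouse in lung, joint and muscle, in UMIs per 1000000 UMIs (CPM) on a linear axis of its own for each gene, with 1 point per mouse, blue for healthy and red for CIA, and a line at the mean. Fabp1 and Car4 were 0 in all joint and muscle sums tested, and Chil3 reached 213 CPM in joint and 332 CPM in muscle.

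The other alveolar macrophage genes went the same way in part. Of the 26 genes, 10 were tested and 5 were higher and 0 lower in lung than in joint, with a median log2 fold change of 1.16 against 0.02 over all genes tested. Over all genes tested, 6.46% were called higher in lung than in joint and 13.3% higher than in muscle. Genes of a list, here and below, can pass the filter through 1 organ alone, so these counts are no support by themselves. Abcg1, a cholesterol exporter, was higher by 2.34 ± 0.36 on the log2 scale (SE), Cd36, a fatty acid receptor, by 1.88 ± 0.40, Ccl6, a chemokine, by 1.69 ± 0.25 and Plin2, a lipid droplet protein, by 1.59 ± 0.29. Against muscle 7 of 10 were higher and 1 lower, with a median of 2.28 against -0.02 over all genes, led by Cd36 at 3.14 ± 0.46, Lpl, the lipoprotein lipase, at 2.97 ± 0.53, Abcg1 at 2.46 ± 0.36 and Mrc1, the mannose receptor, at 2.39 ± 0.51. The 1 lower gene was Fabp4, a fatty acid-binding protein known from fat cells and endothelium, at -2.18.

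Genes of other tissue macrophages went the opposite way against joint. Of 16 such genes 9 were tested, and 0 were higher and 7 lower in lung, with a median log2 fold change of -2.05, where 6.68% of all genes were called lower. Pf4, a platelet and macrophage chemokine, stood at -4.98 ± 0.89, and the complement subunits C1qc at -3.04 ± 0.45, C1qa at -2.76 ± 0.66 and C1qb at -2.47 ± 0.47. Against muscle, 1 of 9 was higher (Mrc1, which both lists hold) and 2 were lower, Pf4 at -3.02 ± 1.06 and Apoe at -1.90 ± 0.45, with a median of -1.06, where 14.2% of all genes were called lower. Of 8 monocyte genes 6 were tested in each contrast, and 1 was lower in lung in each, Ifitm6, at -1.96 against joint and -1.48 against muscle. All 5 granulocyte markers tested were lower in lung in both contrasts.

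The second comparison set lung macrophages of CIA mice against those of healthy mice. Ear2, Chil3 and Fabp1 were lower in CIA mice, Plet1 had nearly the same mean in both groups, and the remaining members gave no call. Summed over the 9 genes the level was 2867 CPM in H3, 3879 in H4, 2477 in H6 and 3127 in H7, and 1110 in S1, 1468 in S2, 1052 in S3, 1594 in S5, 1965 in S6 and 870 in S8. Every CIA mouse lay below every healthy mouse, with means of 3087 ± 592 (SD, n = 4) and 1343 ± 407 (n = 6).

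Ear2 was 459 CPM in H3, 809 in H4, 358 in H6 and 586 in H7, and 160 in S1, 194 in S2, 158 in S3, 208 in S5, 168 in S6 and 174 in S8. The groups did not overlap (553 ± 194 and 177 ± 19.8, SD). The CIA values rest on 14 UMIs in S1, 12 in S2, 3 in S3, 6 in S5, 6 in S6 and 3 in S8. Their small spread is therefore not read as likeness between the mice. The log2 fold change was -1.78 ± 0.31 (SE, adjusted p = 0.00137, edgeR's quasi-likelihood test over 538 genes), and Ear2 remained called when each mouse was left out in turn.

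Chil3 was 717 CPM in H3, 943 in H4, 746 in H6 and 554 in H7, and 378 in S1, 436 in S2, 473 in S3, 485 in S5, 309 in S6 and 174 in S8, again without overlap (740 ± 160 and 376 ± 119). Its log2 fold change was -1.07 ± 0.27 (SE, adjusted p = 0.0162, edgeR). The call was lost without H4 (adjusted p = 0.105) and without S1 (0.0525), and with plain library sizes in place of TMM factors (0.0539), while the fold stayed between -1.18 and -0.93 over 22 alternatives.

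Fabp1 was 774 CPM in H3, 992 in H4, 567 in H6 and 1205 in H7, and 275 in S1, 242 in S2, 52.6 in S3, 451 in S5, 674 in S6 and 58.0 in S8. S6 lay above H6, and the other 5 CIA mice lay below all healthy mice (884 ± 275 and 292 ± 239). The log2 fold change was -1.60 ± 0.43 (SE, adjusted p = 0.0311, edgeR). The adjusted p rose to 0.0679 without H3, 0.105 without H4, 0.0994 without H7, 0.0815 without S1, 0.0706 without S2, 0.0655 without S3 and 0.0545 without S8, so that leaving out any of these 7 mice lost the call.

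These 3 members passed the filter on low counts and 3 of 3 were called lower, where 2.79% of all genes tested were called lower and 3.72% higher in CIA mice. A member can pass this filter through its level in healthy mice alone, so this count is no support by itself. In the fit of every gene with at least 1 count, where 0.0785% of 16555 genes were called lower, 2 of the 8 members with a UMI were called, Ear2 and Fabp1.

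The other members gave no call. Ear1 was 258 CPM in H3, 616 in H4, 209 in H6 and 293 in H7, and 45.8 in S1, 258 in S2, 0 in S3, 104 in S5, 337 in S6 and 58.0 in S8. S2 and S6 lay within the healthy range, and the log2 fold change of -1.51 ± 0.46 (SE) had an adjusted p of 0.259 (edgeR). Atp6v0d2 was 315 CPM in H3, 183 in H4, 388 in H6 and 228 in H7, and 137 in S1, 242 in S2, 158 in S3, 34.7 in S5, 197 in S6 and 0 in S8. The groups overlapped through S2 and S6, and the log2 fold change was -0.98 ± 0.49 (adjusted p = 0.586, edgeR). The osteoclast markers, of which Ctsk gave 79 UMIs in healthy and 24 in CIA lung macrophages and Calcr, Ocstamp and Oscar 0, took 0.0228% to 0.0539% of UMIs in healthy and 0% to 0.0197% in CIA mice. These ranges did not overlap. Outside the cells rich in epithelial markers, the list took 0.0794% of UMIs in healthy cells with 2 or more members and 0.0142% in healthy cells with none. In CIA mice it took 0.0414% and 0.00354%, pooled over mice. The part of other cells with these markers in the Atp6v0d2 level was not tested.

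Car4 had a mean of 109 ± 73.4 CPM (SD, n = 4) in healthy and 56.2 ± 25.9 CPM (n = 6) in CIA mice, with overlap and a log2 fold change of -1.15 ± 0.68 (SE, adjusted p = 0.586, edgeR). Plet1 differed least. It was 143 CPM in H3, 250 in H4, 179 in H6 and 130 in H7, and 68.6 in S1, 64.5 in S2, 158 in S3, 208 in S5, 225 in S6 and 348 in S8. The means were 176 ± 53.8 and 179 ± 107 CPM (SD), while the fit, which weights deeper sums more, gave -0.51 ± 0.51 (SE, adjusted p = 0.613, edgeR). Siglecf gave 1 UMI in H4 and 1 in S1.

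Both experiments were looked at separately. In the experiment CIA, with 3 mice in each group, Ear2 had means of 584 and 183 CPM and Chil3 of 748 and 323 CPM without overlap, and Fabp1 of 921 and 394 CPM with overlap. Plet1 there was higher in CIA mice, at 260 against 187 CPM, with overlap. In the experiment 2CIA the 1 healthy mouse, H3, lay above all 3 CIA mice for Ear2, Chil3 and Fabp1. In the fit of the experiment CIA alone no member was called (edgeR, 2 of 3 at an unadjusted p under 0.05), with log2 fold changes of -1.73 for Ear2 (adjusted p = 0.0722), -1.18 for Chil3 (0.176) and -1.11 for Fabp1 (0.468). With experiment as a term over all 10 mice, Ear2 stood at -1.69 (adjusted p = 0.00515, edgeR), Chil3 at -1.11 (0.027) and Fabp1 at -1.42 (0.0556).

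Without the 52 cells rich in epithelial markers the 3 genes fell by slightly more, Ear2 by 1.90 on the log2 scale (adjusted p = 0.000851, edgeR), Fabp1 by 1.71 (0.0232) and Chil3 by 1.11 (0.0098). The epithelial markers were themselves more abundant in healthy mice, at a median of 7.15% of UMIs against 3.08%.

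The fall in level went with a lower share of cells in which the members were detected. The share of lung macrophages with at least 2 members was 34.1% in H3, 43.2% in H4, 28.0% in H6 and 38.1% in H7, and 9.42% in S1, 16.7% in S2, 12.5% in S3, 19.6% in S5, 25.0% in S6 and 10.3% in S8. With each cell thinned to 400 UMIs the shares were 27.3%, 31.1%, 16.0% and 26.2% in H3, H4, H6 and H7, and 8.70%, 14.6%, 6.25%, 15.2%, 15.4% and 6.90% in S1, S2, S3, S5, S6 and S8. The groups did not overlap at either depth, with thinned means of 25.1% ± 6.44 (SD, n = 4) and 11.2% ± 4.34 (n = 6). The thinned separation was narrow, with 8 of 50 cells in H6 against 8 of 52 in S6, and rests on a single random draw. The share with at least 1 member was 53.1% ± 5.15 and 23.9% ± 6.26, and 45.6% ± 6.29 and 20.2% ± 7.27 after thinning, both above the 7.69% of lung T cells.

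**Figure D3:**
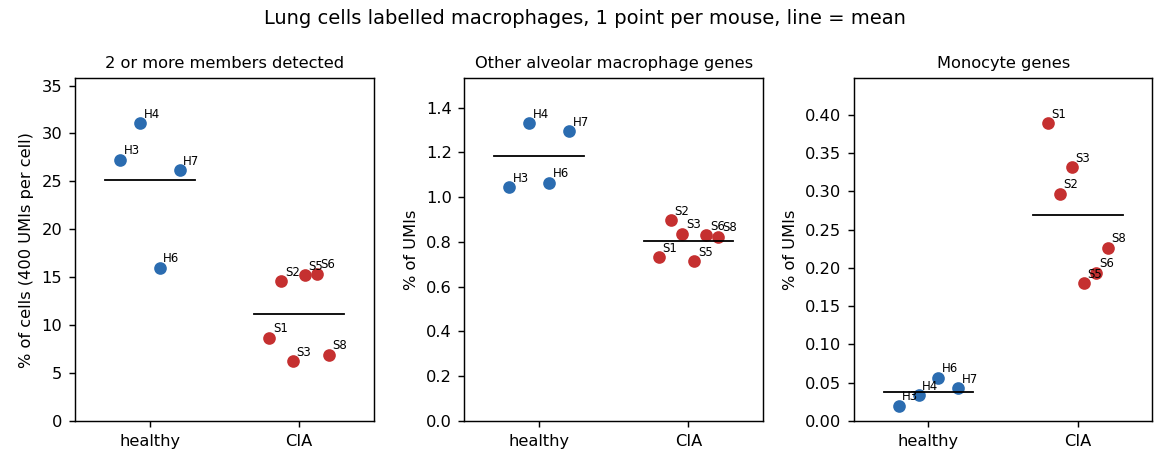
Lung macrophages of each mouse, with a line at the mean: the percent of cells with UMIs of at least 2 members after thinning to 400 UMIs per cell, and the percent of UMIs on the other alveolar macrophage genes and on the monocyte genes. Healthy mice lay above CIA mice in the first measure (16.0% to 31.1% against 6.25% to 15.4%, in a single random draw) and the second, and below them in the third.

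In cells with 2 or more members the other alveolar macrophage genes took nearly the same share in both groups. Outside the cells rich in epithelial markers, these genes took 1.96% of the UMIs of 108 such cells in healthy mice and 1.94% of those of 58 such cells in CIA mice. Cells with no member took 0.629% (109 cells) and 0.567% (285 cells). The cells with no member differed in the monocyte genes, which took 0.0664% of their UMIs in healthy mice and 0.393% in CIA mice. In the cells with 2 or more members the monocyte genes took 0.0207% and 0.0391%. The granulocyte markers were higher in CIA mice in both kinds of cell, at 0.0391% against 0.359% in cells with 2 or more members and 0.0458% against 0.879% in cells with none. Pooled over mice, these shares carry no test.

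The wider lists showed the same direction over all lung macrophages. Of the 26 other alveolar macrophage genes 8 were tested, and 0 were higher and 2 lower in CIA mice, with a median log2 fold change of -0.68 against 0.02 over all genes. The 2 were Lpl at -1.72 ± 0.33 (SE, adjusted p = 0.00322, edgeR) and Cd9, a tetraspanin, at -1.25 ± 0.22 (adjusted p = 0.00137). Of the 8 monocyte genes 2 were tested, and both were higher: Ly6c2, a surface protein of inflammatory monocytes, by 5.00 ± 0.62 (adjusted p = 6.41e-05) and Plac8 by 2.75 ± 0.44 (adjusted p = 0.000524). Over all genes tested, 3.72% were called higher and 2.79% lower in CIA mice. Genes of either list can pass the filter through 1 disease group alone, so these counts are no support by themselves. Of the other tissue macrophage genes only Mrc1 was tested, at -0.75, without a call.

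Monocyte and granulocyte RNA moved with the group. The 8 monocyte genes took 0.0201% to 0.0567% of lung macrophage UMIs in healthy mice and 0.18% to 0.389% in CIA mice, and the 7 granulocyte markers 0.0358% to 0.0545% and 0.058% to 1.47%, neither with overlap. S100a8, an abundant calcium-binding protein of granulocytes and monocytes, was higher by 4.19 on the log2 scale (adjusted p = 0.000391, edgeR). Of the granulocyte markers Ltf was at 0 in CIA mice. The part of monocytes, granulocytes and their free RNA in the lower member levels was not tested.

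By their level over the 28 groups of organ and label with at least 50 cells, the genes most like the summed members were Olr1, a receptor for oxidised lipoprotein (Pearson r = 0.81, on log2 of CPM plus 10), Mgst1, a glutathione transferase of membranes (0.80), Trib1 (0.80), Sgms2, a sphingomyelin synthase (0.79), S100a11 (0.77), Anxa1, an anti-inflammatory annexin (0.77), Slc7a11, a cystine transporter (0.77), and Gng5 (0.77), among 9856 genes with at least 100 UMIs. Of these 8, Olr1 alone was highest in lung macrophages, at 90.5 CPM, with muscle granulocytes next at 67.8. The other 7 were higher in granulocytes, skin macrophages or skin basal III cells, which hold much of the Chil3 and Plet1. The groups share libraries and depth, so r is a description.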

How the data were processed

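Seq-Well libraries of 5 organs from 10 mice were analysed. Per the study's methods, the authors aligned reads to GRCm38 with STAR 2.5.3, built the matrix with Drop-seq tools 1.12, kept cells with at least 10000 reads, 400 transcripts and 200 genes and under 20% mitochondrial reads, and assigned cell types from clusters and markers. The deposited matrix holds raw UMI counts per gene and cell. Doublets were not removed here. In all, 59 barcodes occurred in more than 1 library (135 cells, 3 of them lung macrophages).

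Counts of cells labelled macrophages were summed per mouse and organ (at least 10 cells) and tested with edgeR 4.0.16 in R 4.3.3 (TMM factors, filterByExpr, quasi-likelihood test, Benjamini-Hochberg adjustment over all genes tested, threshold 0.05). Organs were compared in 1 fit with disease as covariate, and CIA was compared with healthy mice in a fit of lung alone. The steps were tested on simulated data. Genes at 0 in a group were given ratios to a floor of 3 counts. Alternatives were DESeq2 1.42.0, RLE factors, plain library sizes, a fit of every gene with a count, minimums of 5 and of 20 cells, cells without a shared barcode, each disease group, each experiment or experiment as a term, each mouse left out, and, chosen after seeing the data, lung cells without those rich in epithelial markers. Organs of the same animal pair the sums by the labels, and deviations of the same mouse correlated between -0.17 and 0.182 over 18 pairs.

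All 9 members were reported. From each wider list at most the 4 genes with the largest fold change past the threshold were named, as were the 8 genes most like the members. Other genes named from marker lists were chosen after their values were seen. The members and lists were chosen with earlier results of these data known. Intervals and floors cover counting error only. Nothing says how libraries of different mice were batched beyond the experiment in the titles, and p-values measure the spread between mice. Depth was 20347 to 1708093 UMIs per library.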

Additional observations from a re-analysis of the deposited data

Results flagged for a closer look

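Within groups of 4 to 10 mice, a mouse was marked where its gap to the nearest other mouse took up an unusually large part of the range (Dixon's test). Of 28 groups tested 7 were marked, and all 7 rest on at most 5 UMIs. In all of them but that of Car4 the other mice were at 0. A mouse with 1 UMI is always marked in such a group, so the number marked cannot be set against chance. In joint macrophages of CIA mice, Atp6v0d2 stood at 53.3 CPM in S1 (5 UMIs) and Ear2 at 42.6 CPM in S1 (4 UMIs), with the other mice at 0. Plet1 there stood at 7.59 CPM in S5 (1 UMI), with the others at 0. In lung macrophages of CIA mice, Car4 stood at 104 CPM in S5 (3 UMIs), with the next mouse at 58.0, and Siglecf at 11.4 CPM in S1 (1 UMI). In those of healthy mice, Siglecf stood at 9.63 CPM in H4 (1 UMI). In muscle macrophages of CIA mice, Ear1 stood at 19.7 CPM in S2 (1 UMI).

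Lung cells without a cell type label, which no comparison used, held the members at 2168 CPM (116 UMIs in 108 cells), against 151 CPM in lung T cells (7 UMIs in 78 cells). At least 1 member was found in 31.5% of them at a median of 429.5 UMIs per cell, and in 7.69% of the lung T cells at a median of 526.5.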

How the results depend on the processing

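The log2 fold changes of Chil3, Ear2 and Fabp1 kept their direction in the 3 comparisons under every alternative run that tested them. Values without a test did not always: Plet1 in CIA over healthy lung had a ratio of means of 1.02 over all mice, 1.39 in the experiment CIA, 0.677 in 2CIA and 0.961 without the cells rich in epithelial markers, and the share of muscle macrophages with a member was 7.41% in healthy and 10.1% in CIA mice, but 5.25% and 3.52% after thinning. In lung against joint, 120 genes were called: 198 without the filter on low counts, 75 in healthy mice alone and 26 in CIA mice alone, and 76 (without S1) to 122 with each mouse left out. The 3 member calls became 7 without the filter, 6 with at least 20 cells per mouse, 0 in CIA mice alone, where the filter left 1 member (1 at an unadjusted p under 0.05, edgeR), and 3 to 5 with each mouse left out (5 without H7). In lung against muscle, 251 genes were called: 97 in healthy mice alone, 115 in CIA mice alone and 153 (without S6) to 274 with each mouse left out. The 3 member calls became 7 without the filter, 6 with at least 20 cells, 1 in CIA mice alone and 3 to 5 with each mouse left out (5 without H7). Mouse as a replicate block in the organ contrasts left 86 and 178 genes and the same number of member calls, 3 in each, and changed no member's call. In CIA against healthy lung, 35 genes were called: 4 in the experiment CIA alone, 5 there without the cells rich in epithelial markers, and 16 to 40 with each mouse left out (16 without H4, 23 without S1). The 3 member calls became 0 in the experiment CIA alone with or without those cells (2 at an unadjusted p under 0.05 in each, edgeR), and 1 to 3 with each mouse left out (1 without H4 and 1 without S1). The numbers in the titles used as a replicate block left 16 genes and 0 members called (0 at an unadjusted p under 0.05, edgeR), but H3 and S3, and H6 and S6, share only a number, not an animal. DESeq2 called 39, 151 and 283 genes for CIA, joint and muscle and 3 members in each. Without the filter Chil3 lost its call between CIA and healthy lung (log2 fold change -1.14, adjusted p = 0.586, edgeR). Plain library sizes moved the median of all genes to 0.16 for CIA, -0.17 for muscle and -0.09 for joint, and the split of genes called higher and lower from 20 and 15 to 23 and 9, from 121 and 130 to 85 and 168, and from 59 and 61 to 42 and 73. Thinning to 400 UMIs moved the mean share of cells with a member by more than 1 SD in lung of healthy mice (to 45.6%), in joint (to 0% and 4.38%) and in muscle of CIA mice (to 3.52%). The causes of these changes were not tested. Marco and Siglecf, at 0 and 2 UMIs in lung macrophages, could not be compared at this depth.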

Other observations

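Outside lung, Chil3 and Plet1 were found in cells of several labels. Chil3 stood at 515 CPM in muscle cells labelled neutrophils (63 UMIs in 127 cells), at 671 CPM in joint cells with that label (20 UMIs in 33 cells) and at 35.8 CPM in joint fibroblasts (27 UMIs in 603 cells). Plet1 stood at 136 CPM in skin fibroblasts, where 15 of 324 cells held its 41 UMIs, and at 471 CPM in skin cells without a label (61 UMIs in 156 cells). Spleen monocytes held the 9 members at 51.9 CPM in sum, Ear2 with 11 UMIs and Ear1 with 2 UMIs among them.

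Pparg, the receptor on which alveolar macrophages depend, was at 48.6 CPM in lung macrophages (22 UMIs), 6.00 CPM in those of joint (2 UMIs) and 3.43 CPM in those of muscle (1 UMI), pooled over mice and without a test. The joint and muscle values lay below the floor of 3 counts. Itgax, the integrin CD11c, was at 83.9, 24.0 and 20.6 CPM in lung, joint and muscle macrophages (38, 8 and 6 UMIs).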
